A study of Mus musculus with 6 samples.

Results

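The muscleblind (MBNL), CELF and RBFOX families are RNA-binding proteins that decide which exons are kept in muscle and neuronal transcripts. Their 9 genes *Mbnl1*, *Mbnl2*, *Mbnl3*, *Celf1*, *Celf2*, *Celf4*, *Rbfox1*, *Rbfox2* and *Rbfox3* were taken by symbol from the 46078 genes of the count table, and each symbol matched 1 row. C2C12 is an established mouse myoblast line that fuses into myotubes when serum is withdrawn. RNA was sequenced from *Hnrnpa2b1* KO and *Hnrnpa2b1* WT cells after 2 days of differentiation by serum withdrawal with ITS supplementation, in 3 libraries of each genotype (KO1 to KO3 and WT1 to WT3). KO cells had been made with Cas9 and 1 guide against *Hnrnpa2b1*. Per the study's methods, 3 independent KO and WT clones were picked after puromycin selection, and its Western blot legend names a scrambled guide for the control cells. The labels do not say which clone gave which library, so the spread between libraries may be clonal, biological or technical, and the p-values measure that spread alone.

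MBNL proteins bind YGCY motifs and favor adult splice forms as muscle matures, and their sequestration by expanded repeats underlies myotonic dystrophy. CELF proteins bind GU-rich RNA and act against MBNL on many of the same exons, with CELF1 and CELF2 falling in muscle after birth. RBFOX proteins bind UGCAUG, with RBFOX1 and RBFOX2 present in muscle and RBFOX3, also known as NeuN, a marker of mature neurons. The 3 families are known to cross-regulate their own splicing, which gene totals cannot show.

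Of the 8 members with enough counts to test, 3 were called at an adjusted p under 0.05 (edgeR's quasi-likelihood test, Benjamini-Hochberg adjustment over 14828 genes). *Rbfox1* fell by 3.86 on the log2 scale, *Mbnl3* rose by 1.79 and *Celf4* rose by 2.47. The 3 called members were the least abundant tested member of each family in both genotypes, and the 5 abundant members were not called. The called share of 37.5% stood beside 22.7% of all tested genes, 12.1% higher and 10.6% lower in KO. That background of 3361 genes fell to 933 when WT1 was left out, 1288 for WT3, 2088 for KO3, 2100 for WT2 and 2695 for KO2. It reached 4712 when KO1 was left out, and the 3 members were called each time. In 5 of the 8 (62.5%) the KO and WT libraries did not overlap, as in 44.3% of all tested genes (22.7% with KO higher, 21.6% with KO lower). Every tested member passed the count filter in all 6 libraries, so none entered the test through 1 genotype alone.

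Library totals ran from 33605258 to 40558740 counts. *Hnrnpa2b1* itself measured 159, 195 and 249 CPM (counts scaled to each library's total with TMM factors) in KO1, KO2 and KO3, and 225, 229 and 252 CPM in WT1, WT2 and WT3. The groups overlapped (log2 fold change -0.23, SE 0.18, adjusted p 0.381). In TPM it was 29.5, 38 and 59.9 in KO and 56.6, 57.4 and 58 in WT, again overlapping through KO3, and without KO3 the TPM difference of -0.76 was called (limma, adjusted p 0.0293). The level of this RNA thus does not separate all libraries by genotype. Per the study's methods the KO clones were checked at the protein level by immunofluorescence and Western blotting, and directions here are those of the labels. Skeletal muscle markers summed to 9947 to 19375 CPM in KO and 16471 to 20377 CPM in WT, which fits the labelled cell type in both. KO libraries differed more among themselves than WT libraries: correlations of log2 CPM between libraries ran from 0.964 to 0.977 in KO and from 0.984 to 0.991 in WT.

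Promoter sequence is shown for the *Rbfox1* and *Mbnl3* starts because these genes changed in opposite directions. The windows run from 250 bases before to 50 bases after a start, 5′ to 3′ on the gene's own strand, from RefSeq on GRCm38.p6, in which 7 of the 9 members matched (not *Celf4* or *Rbfox2*). Capitals mark CANNTG, the E-box core that myogenic factors such as MyoD bind, searched on both strands.
Rbfox1, chr16:7069585-7069884, plus strand: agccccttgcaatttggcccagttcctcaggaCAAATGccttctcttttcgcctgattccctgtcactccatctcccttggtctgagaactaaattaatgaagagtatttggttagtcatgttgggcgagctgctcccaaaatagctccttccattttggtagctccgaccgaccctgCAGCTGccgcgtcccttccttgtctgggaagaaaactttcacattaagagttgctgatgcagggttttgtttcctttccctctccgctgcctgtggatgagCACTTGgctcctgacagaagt
Mbnl3, chrX:51205941-51206240, minus strand: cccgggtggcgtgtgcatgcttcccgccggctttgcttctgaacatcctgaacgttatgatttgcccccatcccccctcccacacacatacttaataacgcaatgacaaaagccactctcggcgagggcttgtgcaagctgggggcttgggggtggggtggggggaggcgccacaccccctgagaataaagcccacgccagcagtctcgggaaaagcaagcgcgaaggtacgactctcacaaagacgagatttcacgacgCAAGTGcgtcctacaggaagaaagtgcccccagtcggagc
The *Rbfox1* window held 3 CANNTG matches, 1 of them CAGCTG, and the *Mbnl3* window held 1 CANNTG match. CANNTG occurred in 72.3% of 32851 promoters and CAGCTG, which is contained in CANNTG, in 16.3%, so these matches are common and are a description only. The other *Rbfox1* window in the table, chr16:5884543-5884842, held 0 CANNTG matches. It lies outside the gene as the deposited StringTie output lists it (chromosome 16, 6809222 to 7412479, plus strand), whereas the printed window lies inside it. In GENCODE vM21 *Rbfox1* starts at 5885355, so the StringTie listing leaves out its upstream part. The counts carry no coordinates, so whether counting left out that part is not known.

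**Figure D1:**
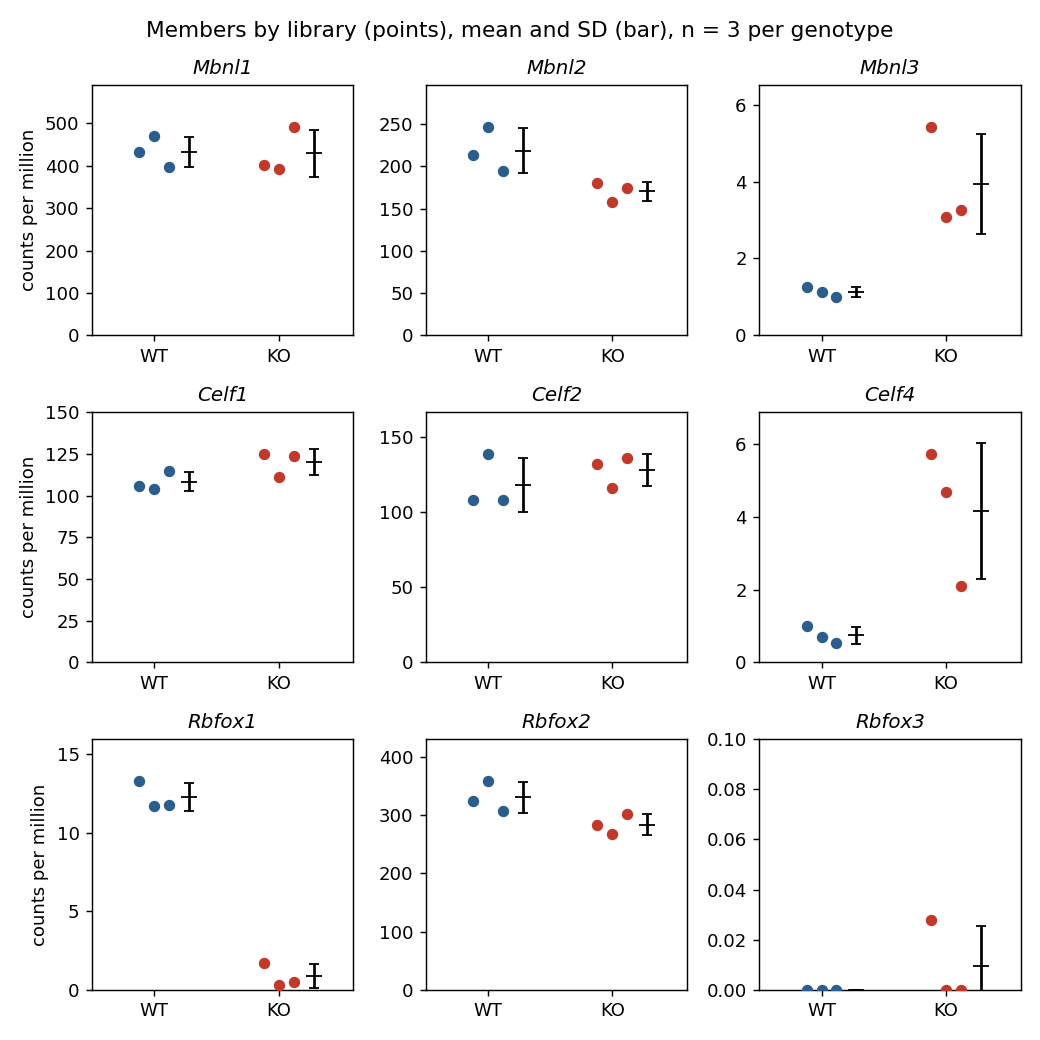
CPM of each member in each library, with each genotype's mean and SD (n = 3) beside the points; every axis starts at 0 and has its own scale. *Rbfox1* lies between 0.321 and 1.73 CPM in KO and between 11.7 and 13.3 CPM in WT, while the *Mbnl1* points of the genotypes overlap (393 to 492 CPM in KO, 397 to 469 CPM in WT).

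*Rbfox1* (ENSMUSG00000008658) encodes the RBFOX protein that in mature muscle and neurons promotes the adult splicing program. Its raw counts were 62, 14 and 21 in KO1, KO2 and KO3, and 461, 385 and 436 in WT1, WT2 and WT3. These correspond to 1.73, 0.321 and 0.513 CPM in KO and 13.3, 11.7 and 11.8 CPM in WT. The genotypes did not overlap, and KO1 was the highest of the KO libraries. The mean was 0.856 ± 0.767 CPM (SD, n = 3) in KO against 12.3 ± 0.919 CPM (SD, n = 3) in WT, a 14.3-fold difference. The fitted log2 fold change was -3.86 (SE 0.57, adjusted p 0.00502), and 0.762% of tested genes were called lower by at least as much. Without KO1 it was -4.88, so the size of the fall, though not its call, depended on that library. In TPM, the length-normalized level from StringTie, *Rbfox1* was 0.270, 0.0759 and 0.109 in KO and 2.41, 2.19 and 1.93 in WT. The difference on the log2(TPM + 1) scale, which understates low genes, was -1.47 (limma, SE 0.15, adjusted p 0.000737), where 20.5% of 11691 genes were called, 11.9% lower and 8.59% higher in KO. *Rbfox1* passed the TPM filter (at least 1 TPM in 3 libraries) through its WT libraries alone, and without that filter limma's adjusted p was 0.0149. The 64 tested genes within 5 Mb of *Rbfox1* had a median log2 fold change of 0.04, against 0.03 over all tested genes. Of these neighbors 3 were called higher and 10 lower, beside 12.1% and 10.6% of all tested genes. The annotated gene that overlaps it, 1700123O21Rik, had 0 counts in all 6 libraries.

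*Rbfox2* (ENSMUSG00000033565; chromosome 15, 77078990 to 77307053, minus strand) is the broadly expressed member. It measured 283, 267 and 302 CPM in KO and 325, 359 and 308 CPM in WT. All KO libraries lay below all WT libraries, but by a small margin, and the log2 fold change of -0.22 (SE 0.14) was not called (adjusted p 0.266). In TPM the groups overlapped. An antisense gene, 1700109K24Rik, overlaps it and held 94 to 320 counts against 10102 to 12376 for *Rbfox2*. Whether counting used strand is not given in the sources used here, so the effect of the overlap on the counts of *Rbfox2* is not known.

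*Rbfox3* (ENSMUSG00000025576; chromosome 11, 118489762 to 118911597, minus strand) had 1 count in KO1 and 0 counts in the other 5 libraries. A count of 0 allows up to 3 counts, or 0.0687 to 0.0914 CPM depending on the library, for counting error alone. It was not tested, and no difference was detectable at this depth.

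Most neuron markers were scarce: of 8 on the list, 3 (*Snap25*, *Elavl4* and *Gad1*) had at most 3 counts in every library, 3 were tested, and the list summed to 7.06 to 24.4 CPM in KO and 3.34 to 7.53 CPM in WT. *Stmn2*, a tubulin-binding protein of growing neurites, made up most of that sum and was called higher with overlapping libraries (log2 fold change 1.96, SE 0.54, adjusted p 0.0367), and *Syt1*, a synaptic vesicle calcium sensor, was called lower (-2.14, SE 0.58, adjusted p 0.035). Both calls were lost without KO2, WT1 or WT3, and that of *Syt1* also without KO3 or WT2, with adjusted p up to 0.137 for *Stmn2* and 0.112 for *Syt1*. *Syt1* had 1, 8 and 8 counts in KO and 17, 23 and 25 counts in WT. It passed the count filter of 0.267 CPM in 3 libraries through its WT libraries alone, so its call carries little weight. The part of *Stmn2* and *Syt1* in the changes of *Rbfox1*, *Mbnl3* and *Celf4* was not tested. In bulk RNA, fewer cells of a type and less RNA per cell cannot be told apart.

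*Mbnl1* (ENSMUSG00000027763; chromosome 3, 60472830 to 60629750, plus strand) encodes the main muscleblind protein of skeletal muscle. Its libraries overlapped, at 402, 393 and 492 CPM in KO and 432, 469 and 397 CPM in WT. The log2 fold change of -0.01 (SE 0.16, adjusted p 0.968) changed sign under 2 other scalings, at 0.03 with upper-quartile factors and 0.11 with library totals.

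*Mbnl2* (ENSMUSG00000022139; chromosome 14, 120275669 to 120431697, plus strand), the paralog that partly covers for *Mbnl1* and leads in brain, was 180, 158 and 174 CPM in KO and 214, 247 and 195 CPM in WT. The groups did not overlap in CPM and did in TPM. The log2 fold change of -0.36 (SE 0.14) had an unadjusted p of 0.0339 and was not called (adjusted p 0.0993).

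*Mbnl3* (ENSMUSG00000036109; chromosome X, 51117269 to 51206532, minus strand) encodes the muscleblind paralog of immature and regenerating muscle, which opposes differentiation when overexpressed in C2C12 cells. It had 194, 135 and 134 counts in KO1, KO2 and KO3, and 44, 37 and 37 counts in WT1, WT2 and WT3. In CPM these were 5.43, 3.09 and 3.27 against 1.27, 1.13 and 0.997. No KO library fell within the WT range, and KO1 stood highest. The means were 3.93 ± 1.30 CPM (SD, n = 3) in KO and 1.13 ± 0.138 CPM (SD, n = 3) in WT, a 3.47-fold rise, with a fitted log2 fold change of 1.79 (SE 0.32, adjusted p 0.00909). Among all tested genes, 3.01% were called higher by at least that much. In TPM it was 0.892, 0.627 and 0.701 in KO against 0.210, 0.159 and 0.134 in WT, below the 1 TPM filter in every library. Without the filter the difference was 0.57 on the log2(TPM + 1) scale and was called (limma, adjusted p 0.0278), where 3.94% of 27302 genes were. The 32 tested genes within 5 Mb of *Mbnl3* had a median log2 fold change of -0.09, against 0.03 over all tested genes. Of these neighbors 1 was called higher and 3 lower, beside 12.1% and 10.6% of all tested genes.

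*Celf1* (ENSMUSG00000005506; chromosome 2, 90940382 to 91019497, plus strand), which also speeds decay of GU-rich mRNAs, was 125, 111 and 124 CPM in KO and 106, 104 and 115 CPM in WT. *Celf2* (ENSMUSG00000002107; chromosome 2, 6539694 to 7509563, minus strand), its close paralog, was 132, 116 and 136 CPM in KO and 108, 139 and 108 CPM in WT. The libraries of both genes overlapped between genotypes. Their log2 fold changes were 0.15 (SE 0.12, adjusted p 0.374) and 0.11 (SE 0.15, adjusted p 0.595).

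*Celf4* (ENSMUSG00000024268; chromosome 18, 25477632 to 25753983, minus strand) is known mainly from neurons, where its loss in mice causes seizures. It had 205, 205 and 86 counts in KO1, KO2 and KO3, and 35, 23 and 20 counts in WT1, WT2 and WT3. In CPM it was 5.74, 4.69 and 2.10 in KO and 1.01, 0.701 and 0.539 in WT. KO3, the lowest KO library, was still above the highest WT library. The means were 4.18 ± 1.87 CPM (SD, n = 3) and 0.751 ± 0.241 CPM (SD, n = 3), a 5.56-fold rise, and the fitted log2 fold change was 2.47 (SE 0.45, adjusted p 0.00971). Of all tested genes, 1.83% were called higher by at least as much. In TPM, *Celf4* was 0.903, 0.772 and 0.393 in KO and 0.184, 0.116 and 0.0860 in WT, again below the filter in every library. Without the filter the difference of 0.57 on the log2(TPM + 1) scale was not called (limma, adjusted p 0.0733). The 25 tested genes within 5 Mb had a median log2 fold change of 0.27, against 0.03 over all tested genes. Of these neighbors 5 were called higher and 3 lower, beside 12.1% and 10.6% of all tested genes. GENCODE vM21 places 2 antisense genes across *Celf4* that were not among the counted genes, and their reads cannot be told apart from those of *Celf4* if counting ignored strand.

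Outside the members, the remaining CELF genes were scarce. *Celf3* measured 0.160 to 0.757 CPM and *Celf5* 0.168 to 0.561 CPM across libraries, *Celf6* had at most 1 count, and neither tested gene was called (edgeR, adjusted p 0.982 for *Celf3* and 0.724 for *Celf5*). *Celf6* was not tested, and the SEs of *Celf3* (0.66) and *Celf5* (0.50) leave room for changes in either direction.

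**Figure D2:**
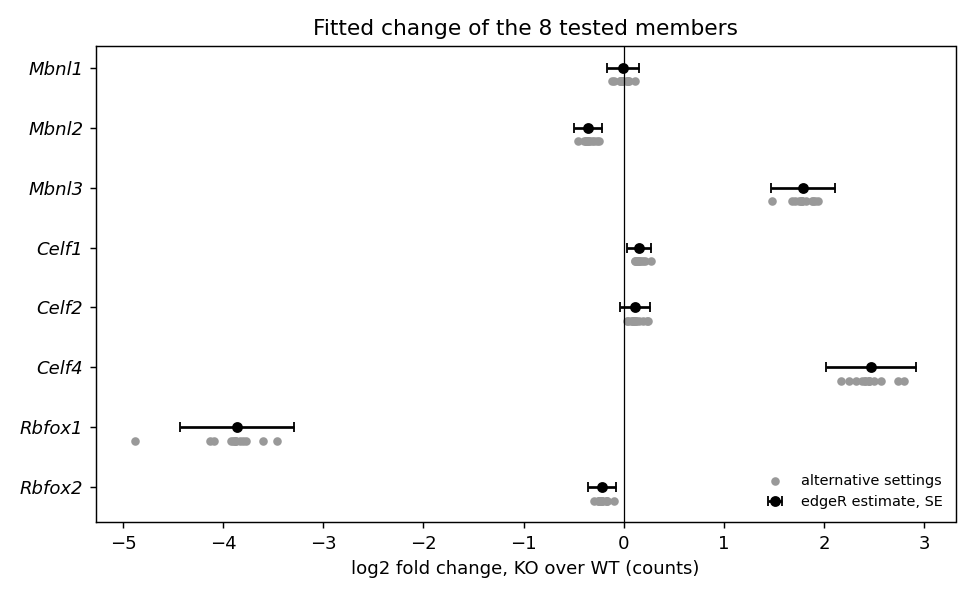
Log2 fold change of KO over WT for the 8 tested members, with its SE (black), and the estimates under 13 other settings of the count analysis (grey). *Rbfox1* stays between -4.88 and -3.46, *Mbnl3* between 1.48 and 1.94 and *Celf4* between 2.17 and 2.80, while the other members lie between -0.46 and 0.27, with *Mbnl2* and *Rbfox2* below 0 and *Celf1* and *Celf2* above 0 in every setting.

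Each of the 3 called members was called under all 13 other settings of the count analysis, among them DESeq2, limma on log2 CPM, other scalings, no filter and leaving out each library. Adjusted p reached at most 0.0275 for *Rbfox1*, 0.0492 for *Mbnl3* and 0.0489 for *Celf4*. With 3 libraries against 3, the exact two-sided permutation test of CPM cannot go below 0.1, and it gave 0.1 for *Rbfox1*, *Mbnl3*, *Celf4*, *Mbnl2* and *Rbfox2*, 0.2 for *Celf1*, 0.4 for *Celf2* and 0.9 for *Mbnl1*.

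Levels were compared between genes in TPM, which accounts for length. In WT cells the order of mean TPM was *Mbnl1* (72.6), *Mbnl2* (35), *Rbfox2* (32.0), *Celf2* (15.9), *Celf1* (12.6), *Rbfox1* (2.18), *Mbnl3* (0.168), *Celf4* (0.129) and *Rbfox3*, which was listed at 0. The neighbors *Mbnl2* and *Rbfox2*, *Celf2* and *Celf1*, and *Mbnl3* and *Celf4* overlapped in their library ranges. In KO cells *Mbnl1* (69.5) again led, followed by *Rbfox2* (27.5), *Mbnl2* (27.3), *Celf2* (17.6) and *Celf1* (13.8). Below these came *Mbnl3* (0.740), *Celf4* (0.689) and *Rbfox1* (0.152). *Rbfox1* thus moved from sixth to eighth place, with a KO range that did not overlap that of *Celf4*, and the same 3 pairs of neighbors overlapped as in WT.

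**Figure D3:**
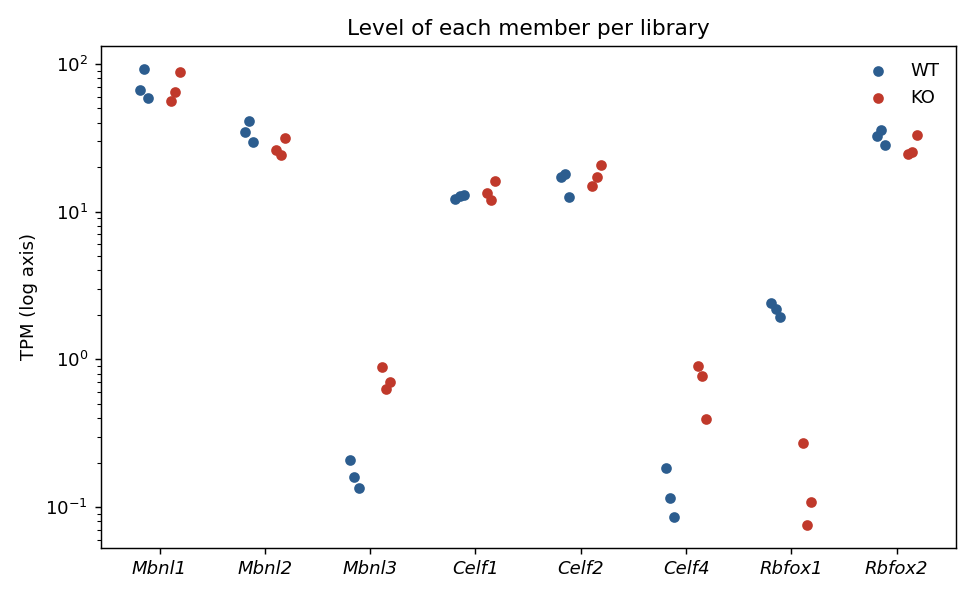
TPM of each member in each library on a log axis, WT in blue and KO in red; *Rbfox3*, listed at 0, is left out. *Mbnl3* and *Celf4* lie at 0.086 to 0.210 TPM in WT and 0.393 to 0.903 TPM in KO, and *Rbfox1* crosses them in the other direction.

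In TPM, the sums of each family overlapped between genotypes. MBNL genes together gave 97.5 ± 20 TPM in KO and 108 ± 23.5 TPM in WT (SD, n = 3 each), CELF genes 32.1 ± 4.42 and 28.6 ± 2.72 TPM, and RBFOX genes 27.7 ± 4.73 and 34.2 ± 3.70 TPM. In CPM the RBFOX sum did not overlap, at 267 to 303 in KO and 319 to 370 in WT. The called members made up at most 6.92% of their family's TPM in any library. *Rbfox1* supplied 1.10%, 0.300% and 0.328% of RBFOX TPM in KO1, KO2 and KO3 and 6.92%, 5.82% and 6.39% in WT1, WT2 and WT3. The mean share fell by 5.81 percentage points in TPM and by 3.29 points when taken from CPM. *Mbnl3* supplied 0.787% ± 0.258 of MBNL TPM in KO and 0.159% ± 0.0446 in WT, and *Celf4* 2.24% ± 1.06 of CELF TPM in KO and 0.446% ± 0.157 in WT (SD, n = 3 each). The groups did not overlap in any of these 3 shares.

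The balance between the opposing MBNL and CELF families was described as the log2 ratio of their TPM sums. It was 1.5, 1.58 and 1.69 in KO1, KO2 and KO3 and 1.78, 2.12 and 1.79 in WT1, WT2 and WT3. Every KO library was lower, though KO3 and WT1 were close. The mean ratio was 1.59 ± 0.10 in KO and 1.90 ± 0.19 in WT (SD, n = 3 each), a difference of -0.31 that was -0.19 without WT2, and with CPM in place of TPM it was 1.26 ± 0.10 and 1.52 ± 0.10. No p-value is attached, because the ratio is a score over the members.

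**Figure D4:**
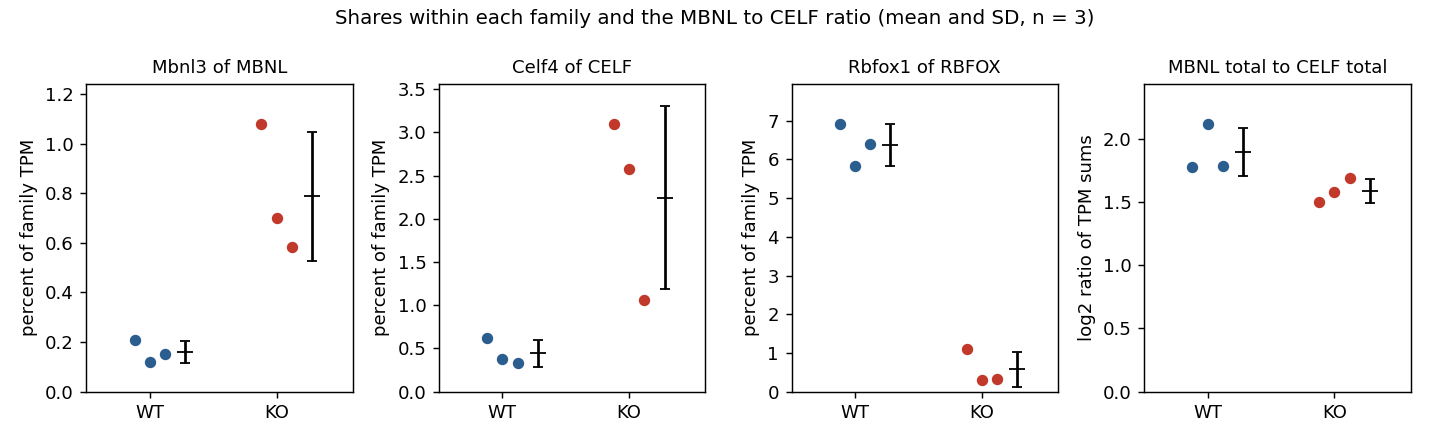
Percent of family TPM supplied by *Mbnl3*, *Celf4* and *Rbfox1*, and the log2 ratio of MBNL to CELF TPM, per library with mean and SD (n = 3); axes start at 0. The KO and WT points do not overlap in any panel, with the narrowest gap in the ratio (1.69 in KO3 against 1.78 in WT1).

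Genes whose splicing these families are known to control were examined at the level of total RNA, on a list of 24 of which 23 were tested. In KO cells 6 fell and 1 rose, with a median log2 fold change of -0.55 against 0.03 over all tested genes. The called shares were 26.1% lower and 4.35% higher, beside 10.6% and 12.1% of all tested genes. *Dtna*, a dystrobrevin of the dystrophin complex, averaged 50.5 CPM in KO and 217 CPM in WT (log2 fold change -2.11, SE 0.18, adjusted p 0.000812). *Pdlim3*, a Z-disc protein, averaged 29.8 and 110 CPM (-1.89, SE 0.28, adjusted p 0.00519). *Nfix*, a transcription factor of fetal myogenesis and the one that rose, averaged 280 and 133 CPM (1.07, SE 0.16, adjusted p 0.00541). Of the remaining falls, named after their values were seen, that of the insulin receptor *Insr* (-1.26, adjusted p 0.00453) was kept in all 13 other settings. The falls of *Bin1* (-1.04, adjusted p 0.0397), *Atp2a1* (-1.0, adjusted p 0.047) and *Enah* (-0.58, adjusted p 0.0301) were lost in some settings, with adjusted p up to 0.142, 0.136 and 0.0878. The count of falls was 3 without KO2, KO3, WT1 or WT3, 4 without WT2 and 13 without KO1, where calls over all genes ranged from 933 (WT1 left out) to 4712 (KO1 left out), and DESeq2, which called 24.3% of 17114 genes, called 9 lower and 2 higher. With no filter on low counts there were 11 falls and 2 rises among 24 tested. Every gene with any count was then tested, and 4538 were called in all. The called share over all genes is not given for that setting, so it offers no background for these counts. With library totals only there were 4 falls and 1 rise, when 3469 genes were called in all. *Clcn1*, the chloride channel mis-spliced in myotonic dystrophy, was 0.426 CPM in KO and 0.861 CPM in WT and was not called (adjusted p 0.125).

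Of 13 other splicing regulators of muscle or neurons, 10 were tested, and 4 rose and 1 fell in KO. The called shares were 40% higher and 10% lower, beside 12.1% and 10.6% of all tested genes, and the median log2 fold change was 0.32 against 0.03. *Hnrnpa1*, a splicing repressor of the same family as *Hnrnpa2b1*, averaged 396 CPM in KO and 226 CPM in WT (0.81, SE 0.20, adjusted p 0.0268). *Ptbp1*, the polypyrimidine tract-binding repressor of muscle and neuronal exons, averaged 65.9 and 40.9 CPM (0.69, SE 0.20, adjusted p 0.0432). Its paralogs *Ptbp2* (0.55, adjusted p 0.0257) and *Ptbp3* (0.59, adjusted p 0.0259) rose as well. *Rbm20*, which controls titin splicing, averaged 97.0 and 145 CPM (-0.58, SE 0.14, adjusted p 0.0258). In each of these 5, which were picked as called, the KO and WT libraries did not overlap, as in 44.3% of all tested genes. Each call was lost in at least 5 of the 13 settings, and none of the 5 was called without KO3, without WT1 or without WT3. Of the 5, *Ptbp3* alone was called without KO2 and *Ptbp1* alone without WT2. Over all genes, calls fell from 3361 to 2695 without KO2, 2088 without KO3, 933 without WT1, 2100 without WT2 and 1288 without WT3.

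**Figure D5:**
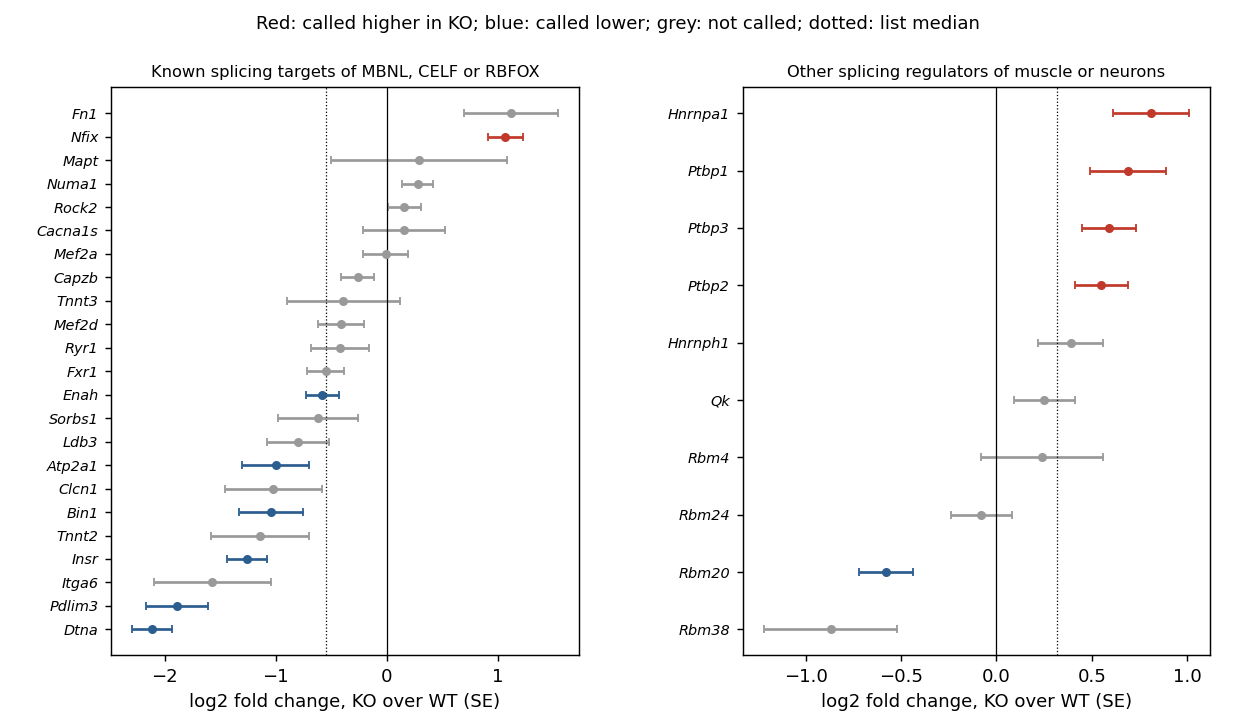
Log2 fold change (KO over WT, with SE) of the tested known splicing targets (left) and other splicing regulators (right), with genes called higher in red, called lower in blue and not called in grey; the dotted line is the list's median. Targets center at -0.55 and regulators at 0.32.

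Markers of differentiation moved in both directions beside these changes. Of 10 skeletal muscle markers, 2 rose (20%) and 1 fell (10%), beside 12.1% and 10.6% of all tested genes, with a median log2 fold change of 0.06. *Myl1*, a fast myosin light chain, averaged 309 CPM in KO and 1617 CPM in WT (-2.39, SE 0.61, adjusted p 0.0297), while the myogenic factor *Myod1* averaged 212 and 107 CPM (0.99, SE 0.20, adjusted p 0.0141) and the adhesion protein *Cdh15* 611 and 376 CPM (0.70, SE 0.17, adjusted p 0.0258). *Myog*, which drives terminal differentiation, was at 1415 and 1354 CPM and was not called (adjusted p 0.863). The contractile genes *Myh3* (-1.18, edgeR adjusted p 0.126) and *Actc1* (-1.16, edgeR adjusted p 0.089) were lower in every KO library but were not called. With *Myl1*, 3 of the 10 lay lower in every KO library and 2 lay higher, beside 21.6% and 22.7% of all tested genes. Of 6 markers of undifferentiated cells, 2 rose (33.3%) and 1 fell (16.7%): *Pax7*, the satellite cell factor (1.52, SE 0.36, adjusted p 0.0223), *Id1*, an inhibitor of myogenic factors (1.23, SE 0.22, adjusted p 0.00957), and *Myf5*, a factor of myoblast commitment (-1.50, SE 0.39, adjusted p 0.0303). All 6 of these calls were lost without WT1, when 933 genes were called in all against 3361. Without WT3 (1288 genes called in all) only *Id1* remained called. Without KO2 (2695 genes) the muscle list had 2 rises and 0 falls and the undifferentiated list 1 of each. Without KO3 (2088 genes) the muscle and undifferentiated lists had 1 and 2 rises and 0 falls. Without WT2 (2100 genes) the fall of *Myf5* was lost, and without KO1 (4712 genes) muscle markers had 2 rises and 5 falls. DESeq2 called 2 muscle markers higher and 3 lower. Fibroblast and adipocyte markers summed to 16.4 to 99.4 CPM in KO and 10.6 to 23 CPM in WT, with *Pdgfra* called higher (1.17, SE 0.29, adjusted p 0.0257). *Pdgfra* was 6.32, 8.59 and 12 CPM in KO1, KO2 and KO3. *Dcn*, which was not called in the main fit (adjusted p 0.259), was 90.6, 7.58 and 7.62 CPM in these libraries. The *Pdgfra* call was lost without KO3, WT1, WT2 or WT3, and 3 of the 6 genes had at most 3 counts in every library. In the main fit 2 of the 6 were tested. With no filter on low counts all 6 were tested and 3 were called higher. The 4538 genes called in all came from a larger set than in the main fit, and their share is not given. Immune and endothelial markers summed to 2.04 to 3.53 CPM in all libraries, and the 1 tested (*Cd68*) was not called. The part of these markers in the members' changes was not tested.

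The genes whose log2 CPM most resembled each called member across the 6 libraries were sought among 8864 genes whose mean log2 CPM was 3 or more. For *Rbfox1* these were *Tnik*, a kinase that regulates the cytoskeleton (Pearson r 0.999), *C2cd2l*, a lipid transfer protein (0.997), and *Ell*, a transcription elongation factor (0.997). *Tnik* fell further than *Rbfox1* (fitted log2 fold change -4.55), at 7.75, 1.12 and 1.66 CPM in KO and 78.3, 84.0 and 81.7 CPM in WT. For *Mbnl3* they included *Dynap* (0.995) and *Cd3eap*, an RNA polymerase I subunit (0.995). *Dynap* was 30.8, 13.4 and 15.8 CPM in KO and 5.09, 5.27 and 4.18 CPM in WT, with KO1 highest as for *Mbnl3*. For *Celf4* they were *Kifap3*, a kinesin adaptor (0.998), *Fam35a* (0.995) and *Tob2*, an antiproliferative protein (0.995), whose fitted log2 fold changes of 0.39, 0.45 and 0.43 were far smaller than that of *Celf4*. These correlations rest on 6 libraries split by genotype, share the library scaling, and are the highest of many, so they are a description.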

How the data were processed

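Total RNA of 6 libraries was sequenced by the submitters as paired reads. Per the labels' processing notes the authors used FastQC, Trim Galore, STAR, featureCounts, StringTie and Salmon; the versions behind the deposited files, and strand use in counting, are not given in the sources used here. The deposited gene table holds raw counts (46078 genes), and the deposited StringTie tables hold TPM and FPKM per library. The labels name mm9 and the study's methods GRCm39, but 83.2% of 45137 matched genes had coordinates identical to GENCODE vM21 on GRCm38, the build used here. Counts (totals 33605258 to 40558740) were filtered with edgeR's filterByExpr (0.267 CPM, from 10 counts at the median total, in 3 libraries), scaled by TMM and tested with quasi-likelihood (edgeR 4.0.16, R 4.3.3) on KO against WT, 3361 of 14828 genes being called. TPM was tested with limma 3.58.1 on log2(TPM + 1). TPM rows sharing a gene ID (8 to 17 IDs per library) were summed. DESeq2 1.42.0, limma on log2 CPM, other scalings, filters and left-out libraries were alternatives. No libraries were duplicates (chi-square per degree of freedom 50.1 to 189 within groups). Scripts were tested on simulated data.

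The members and lists were chosen with earlier results of these data known. Named genes were all members, *Hnrnpa2b1*, the 2 largest called rises and falls of each list, and the 3 genes most like each called member, of which 1 is not reported here. *Ptbp2*, *Ptbp3*, *Insr*, *Bin1*, *Atp2a1*, *Enah*, *Clcn1*, *Myog*, *Myh3*, *Actc1*, *Dcn*, *Cd68*, *Celf3*, *Celf5*, *Celf6* and the neuron markers at the count limit fall outside this rule and were named after their values were seen. Counts of 0 were given a limit of 3 counts; such limits cover counting error only.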

Additional observations from a re-analysis of the deposited data

How the results depend on the processing

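The 3 member calls on counts (*Rbfox1*, *Mbnl3*, *Celf4*) were kept in all 13 alternatives. Low levels kept *Rbfox3* out of the test on counts and *Mbnl3* and *Celf4* out of the test on TPM. Over all genes, leaving out 1 library gave 933 to 4712 calls on counts (3361 with all) and 484 to 3156 on TPM (2394 with all). On TPM, 1 member (*Rbfox1*) was called, 0 to 1 with 1 library left out, because *Rbfox1* no longer reached 1 TPM in 3 libraries once a WT library was removed. Without a TPM filter 1075 genes and 2 members (*Rbfox1* and *Mbnl3*) were called, and 1274 genes and 2 members with a pseudocount of 0.1 as well, a setting chosen after seeing the data.

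Differences near 0 changed sign. *Mbnl1* on counts was 0.03 with upper-quartile factors, 0.11 with library totals and -0.12 to 0.05 with 1 library left out, against -0.01. With 1 library left out, *Mbnl1* on TPM ran from -0.24 to 0.12, *Celf2* on TPM from -0.01 to 0.25, the MBNL total from -21.7 to 2.71 TPM, the *Celf1* share from -2.94 to 1.75 percentage points and the *Celf2* share from -3.50 to 1.24. The *Rbfox3* share was 0 in TPM and differed by 0.00328 points in CPM. Within 10 Mb the median of genes near *Mbnl1* was 0.09 and near *Rbfox1* -0.01. The cause was not tested.

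The replicate numbers showed no sign of pairing the libraries: deviations of same-numbered libraries correlated at 0.137, -0.116 and 0.00413. Differently numbered libraries correlated at -0.335 to 0.28. With 3 libraries per genotype these values cannot settle whether the libraries were prepared in pairs. With the replicate number as a block, 2520 genes and 3 members were called on counts, and 2103 genes and 1 member on TPM. *Rbfox1* was then -4.13 (edgeR, adjusted p 0.00753), *Mbnl3* 1.75 (0.0176) and *Celf4* 2.41 (0.0102).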
